A study of Mus musculus with 9 samples.

Results

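The EGR, NR4A and KLF transcription factors and Ier3 were followed in cultured dendritic cells given DNA. The members were the 10 genes Egr1, Egr2, Egr3, Nr4a1, Nr4a2, Nr4a3, Klf2, Klf4, Klf6 and Ier3, and every probe set that carried one of these as its only gene symbol was taken. They numbered 24 of 45037 probe sets, and all 10 genes were among the 12586 genes tested. The arrays were Affymetrix mouse expression arrays, which read each transcript as a signal intensity in linear units. Bone marrow cells of the 129/SvEv strain were grown with GM-CSF, a myeloid growth factor, for 9 to 12 days, and this held for all 3 groups of 3 arrays. The groups were wild-type cells in media with no stimulation (media), wild-type cells given purified DNA of tumor cells with lipofectamine for 7 h (wild type with DNA), and STING knockout cells given the same stimulus (knockout with DNA). STING is the adaptor through which cytosolic DNA is sensed. Neither unstimulated knockout cells nor cells with lipofectamine alone were analysed here. DNA and reagent therefore cannot be told apart, nor can a genotype difference present before stimulation be told from one in the response. The labels do not say whether the 3 arrays of a group came from separate mice or cultures, and the spread behind the p-values is that among these arrays, possibly a technical one.

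Most of these genes belong to the immediate early class. Promoters of that class are held ready, so that transcription starts within minutes of a signal without new protein synthesis. The cells given DNA were read at 7 h alone, so levels in the first minutes and hours were not measured. EGR factors are zinc finger proteins usually driven by ERK signalling through SRF at CArG boxes, NR4A factors are orphan nuclear receptors often driven through CREB at cAMP response elements, and KLF factors are zinc finger proteins that bind GC-rich sequence and set the activation state of myeloid cells. Ier3 encodes a small stress response protein known as a target of NF-kappaB. In myeloid cells NR4A1 is known as a brake on inflammatory genes and KLF6 as a factor that works with NF-kappaB.

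The array check and the overall response were as follows. Sting1, the targeted gene, read 246, 336 and 327 in the knockout arrays and 646 to 2260 in the 6 wild-type arrays. The transcript of Ifnb1, interferon beta, read 47.3 to 72.4 in media, 5210 to 21600 in wild type with DNA and 43.3 to 62.5 in the knockout. All arrays had a trimmed mean of 500. Differences are in log2(signal + 16), and a gene was called where limma's test gave a Benjamini-Hochberg adjusted p below 0.05 over all genes. A filter removed probe sets with an average signal under the 40th percentile, and the brightest one left stood for its gene. Arrays are numbered 1 to 3 in each group from the sample titles, and the replicate block is a fit that takes this number as a term. With DNA 33.6% of the genes were called in wild type, 1251 higher and 2973 lower, a split that became 2038 higher and 1451 lower when each array was centred on its median. Under DNA 31.5% were called between knockout and wild type, 2746 higher and 1224 lower, or 1456 higher and 1805 lower with median centring. The median log2 difference of all genes was -0.20 in the first of these comparisons and 0.20 in the second, and 0.11 and -0.06 with median centring, so small differences of single genes depend on the scaling. The spike-in BioB had a mean signal of 406 to 552 on number 1 arrays, against 115 to 189 on numbers 2 and 3, and differences within each number are given below for that reason.

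The dendritic and myeloid list had 11 of 12 markers above the filter, with Itgax (CD11c) at 4110 to 6170, while Flt3 was below it on average (5.74 to 55.1). Zbtb46, a marker of classical dendritic cells, read 54.1 to 226, and the macrophage marker Adgre1 read 3120 to 8310. The T cell genes Cd3e, Cd3d and Cd3g read 1.78 to 42.5 and were all below the filter. Summed signals of the 8 measured macrophage and monocyte markers were 39500 to 51400 in media, 53600 to 68600 in wild type with DNA and 38800 to 52900 in the knockout. These markers did not move as one: with DNA in wild type Cd14 (0.49) and Fcgr1 (2.10) rose, Cx3cr1 fell (-2.14), 5 were not called, and the median difference of the 8 was -0.46. Of all genes 9.94% were called higher there and 23.6% lower. Summed signals of the mast cell and basophil list were 398 to 1200, 1360 to 3490 and 286 to 331. Hdc led this list only in wild type with DNA, at 2050, 803 and 975, against 123, 6.58 and 81 in media. In media and in the knockout Cpa3 was the highest. With DNA in wild type Hdc was the 1 called of the 6 measured (4.14), where 9.94% of all genes were called higher. Under DNA 4 of the 6 were called lower in the knockout, where 9.73% of all genes were. Summed neutrophil markers were 30600 to 85000, 34300 to 98100 and 45600 to 52400, with S100a8 the brightest on average. Under DNA the median difference of the 9 measured was -0.94 in the knockout, while Mmp8 differed by 0.35. Mpo was the 1 of the 9 called (-1.08, adjusted p = 0.04), where 9.73% of all genes were called lower. The part of these cells in the results below was not tested, and in such bulk RNA fewer cells of a type and less RNA per cell cannot be told apart.

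The NR4A genes are shown first with their promoters, because all 3 of them hold the same motif several times. The promoter windows are the 250 bases before the transcription start in RefSeq for the build GRCm38.p6. Entries matched 8 of the 10 members, all but Egr1 and Egr3. Capitals mark TGACG, the core of the cAMP response element bound by CREB, on either strand (it reads CGTCA on the other). Nr4a1 lies at chr15:101266596-101266845 on the plus strand, Nr4a2 at chr2:57124004-57124253 on the minus strand, and for Nr4a3 the 30 bases from -226 to -197, at chr4:48045079-48045108 on the plus strand, are printed.
Nr4a1: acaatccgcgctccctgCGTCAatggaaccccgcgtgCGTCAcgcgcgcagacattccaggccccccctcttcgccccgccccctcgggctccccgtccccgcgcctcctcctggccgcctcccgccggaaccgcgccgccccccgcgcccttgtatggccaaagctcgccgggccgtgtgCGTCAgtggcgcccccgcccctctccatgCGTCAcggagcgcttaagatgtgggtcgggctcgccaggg
Nr4a2: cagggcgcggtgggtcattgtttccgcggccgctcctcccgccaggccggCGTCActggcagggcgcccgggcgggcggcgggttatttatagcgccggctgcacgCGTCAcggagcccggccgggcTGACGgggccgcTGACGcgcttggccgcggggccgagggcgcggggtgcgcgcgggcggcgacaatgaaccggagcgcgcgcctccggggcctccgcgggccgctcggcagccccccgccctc
Nr4a3: tagcgtcccatgtCGTCAcatTGACGtctc
Each of these 3 windows held 4 matches to TGACG. They began at -233, -213, -69 and -40 for Nr4a1, at -200, -144, -123 and -111 for Nr4a2, and at -231, -213, -205 and -147 for Nr4a3. Of 32851 mouse promoter windows, 17.8% held at least 1 match and 0.137% held 4 or more, a number looked at after the matches had been seen. The full element TGACGTCA, which contains TGACG on both strands, occurs in 1.55% of windows and was in none of the 8 members. AAAGGTCA, the site that NR4A proteins bind as monomers, and the interferon response motif occur in 1.34% and 2.98% of windows and were likewise in none of the 8. A match is a stretch of letters and no measure of binding.

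Nr4a2 and Nr4a3 rose with tumor DNA in wild-type cells, and Nr4a1 was highest in the knockout. Nr4a2, known for its part in restraining inflammation in microglia and macrophages, had signals of 203, 210 and 111 in media, 542, 396 and 448 in wild type with DNA and 278, 314 and 447 in the knockout with DNA. The media arrays were the 3 lowest of the 9, and the knockout arrays overlapped those of wild type with DNA. Its log2 difference with DNA in wild type was 1.36 ± 0.27 (SE, n = 3 per group, adjusted p = 0.0049), a 2.57-fold rise, and 1.35, 0.86 and 1.87 within array numbers 1, 2 and 3. Under DNA the knockout differed from wild type in Nr4a2 by -0.41 ± 0.27 (95% interval -1.02 to 0.20, adjusted p = 0.28). All 3 knockout arrays read above all 3 media arrays, by 0.95 ± 0.27, which did not pass the test (adjusted p = 0.33). Of the 6 Nr4a2 probe sets, 4 had clear signals, and in a fit of all probe sets each of these was called higher with DNA in wild type, by 0.89 to 1.71 (adjusted p 0.0032 to 0.029). The others were weak: one read 13.2 to 98.8 and differed by 0.07 (adjusted p = 0.93), and one was below the filter at 5.06 to 12.2.

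Nr4a3 read 948, 870 and 472 in media, 5440, 1910 and 1970 in wild type with DNA and 961, 1770 and 1930 in the knockout. The wild-type DNA arrays all lay above the media arrays, with array 1 far above the other two. The rise in wild type was 1.88 ± 0.44 (SE, n = 3 per group, adjusted p = 0.0095), 3.69-fold, and within numbers it was 2.50, 1.12 and 2.02. The call was lost without the arrays numbered 3 (1.81, adjusted p = 0.068) and when the gene's 3 probe sets were averaged (0.75, adjusted p = 0.11). The other probe sets of Nr4a3 were weak, at 5.05 to 103 over the 9 arrays, with differences of -0.08 and 0.45. Under DNA the knockout differed from wild type by -0.87 ± 0.44 (95% interval -1.85 to 0.10, adjusted p = 0.16). This lay mainly in number 1, at -2.48, against -0.11 and -0.03 in numbers 2 and 3, and without the arrays numbered 1 it was -0.07 (adjusted p = 0.88). Against media the knockout differed by 1.01 ± 0.44 (adjusted p = 0.64), with no overlap between the groups, and by 0.02, 1.01 and 1.99 within numbers. Over the 9 arrays the log2 signals of Nr4a2 and Nr4a3 had a Pearson correlation of 0.93, which includes the differences between the groups.

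Nr4a1, also called Nur77, had the lowest signals in media (233, 290 and 183), intermediate ones in wild type with DNA (311, 349 and 346) and the highest in the knockout with DNA (537, 675 and 644). No array of one group fell within the range of another. The knockout exceeded wild type under DNA by 0.85 ± 0.20 (SE, n = 3 per group, adjusted p = 0.0094), 1.80-fold, and by 0.76, 0.92 and 0.87 within numbers. Against media the knockout was higher by 1.35 ± 0.20 (adjusted p = 0.017), 2.55-fold, and by 1.15, 1.18 and 1.73 within numbers. In that comparison 0.429% of all genes were called, 54 in number or 176 with the replicate number as a block, and Nr4a1 was the 1 member among them. In wild type the difference with DNA was 0.50 ± 0.20 (95% interval 0.06 to 0.94, adjusted p = 0.075). It passed the test with the replicate block (0.50, adjusted p = 0.041), with quantile normalization (0.81, adjusted p = 0.0081), with median centring (0.81, adjusted p = 0.0085) and without media array 2 (0.66, adjusted p = 0.044). The call against wild type under DNA was lost without the arrays numbered 2 or 3 (adjusted p = 0.067 and 0.083). The call against media was lost without the arrays numbered 1, 2 or 3, and without media array 1 or 3 or knockout array 2 or 3 (1.16 to 1.45, adjusted p 0.067 to 0.71). Nr4a1 had 1 probe set, so no other reading of it was to hand.

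**Figure D1:**
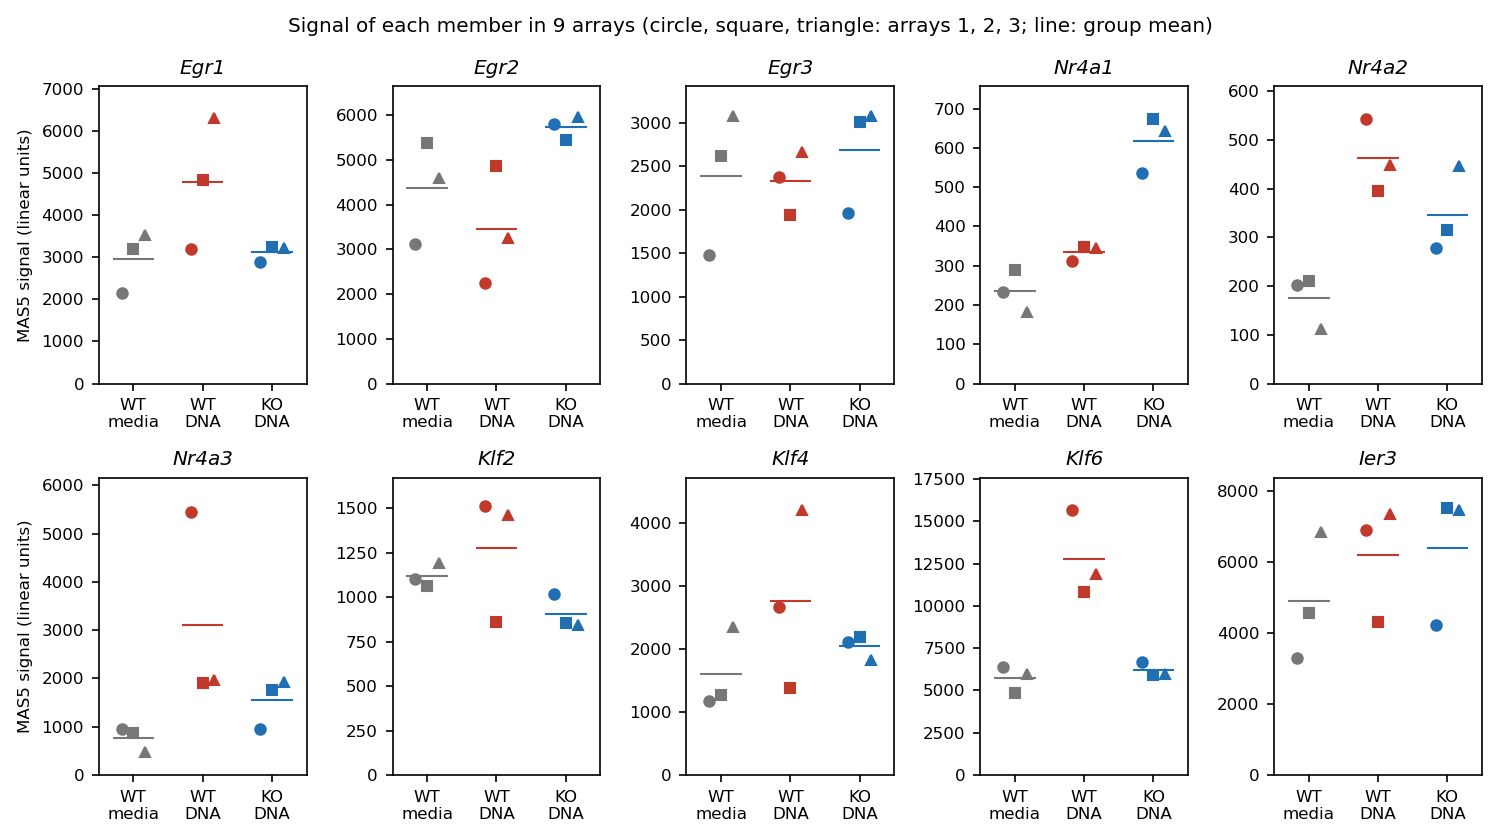
Signal of each of the 10 members (MAS5 linear units, axis from 0) in wild type in media (grey), wild type with tumor DNA (red) and STING knockout with tumor DNA (blue), with symbols for array numbers 1 to 3 and a line at each group mean. Klf6 is high in the 3 wild-type DNA arrays alone (10800 to 15700), and Nr4a1 is highest in the 3 knockout arrays (537 to 675).

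Klf6 rose with DNA in wild-type cells and stood near its media level in the knockout. Its signals were 6370, 4840 and 5980 in media, 15700, 10800 and 11900 in wild type with DNA and 6660, 5930 and 5970 in the knockout. The 3 wild-type DNA arrays were above the other 6. The rise in wild type was 1.15 ± 0.16 (SE, n = 3 per group, adjusted p = 0.0010), 2.22-fold, and 1.30, 1.16 and 0.99 within numbers. Under DNA the knockout was 2.05-fold lower than wild type (log2 difference -1.03 ± 0.16, adjusted p = 0.0014), by -1.24, -0.87 and -1.0 within numbers. Knockout with DNA and wild type in media differed by 0.12 ± 0.16, with a 95% interval of -0.24 to 0.48 (adjusted p = 0.96). All 5 Klf6 probe sets were called in both directions, by 1.15 to 1.63 with DNA in wild type (adjusted p 0.00043 to 0.0046) and by -1.40 to -1.03 in the knockout (adjusted p 0.00089 to 0.0080). Both Klf6 calls remained under each of the 9 other settings and each of the 12 ways of leaving out arrays, the latter with adjusted p of 0.0013 to 0.034 in wild type and 0.0018 to 0.044 in the knockout.

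The promoter window of Klf6, called in both of these comparisons, is given for comparison with the NR4A windows. It lies at chr13:5861239-5861488 on the plus strand and has no capitals, since it held no match to TGACG or to any of the other motifs searched.
Klf6: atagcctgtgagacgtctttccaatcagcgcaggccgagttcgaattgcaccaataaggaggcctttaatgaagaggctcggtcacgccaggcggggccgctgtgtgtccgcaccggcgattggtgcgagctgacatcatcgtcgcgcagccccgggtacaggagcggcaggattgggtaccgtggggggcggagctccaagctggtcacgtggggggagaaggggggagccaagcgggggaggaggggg
The other KLF windows, of Klf2 and Klf4, each held 1 TGACG, beginning at -241 and -232. The window of Ier3 held a kappa B motif at -92, which 3.90% of windows hold. That of Klf6 held none, which says only that these letters were not in those 250 bases.

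Klf4, a factor of monocyte and macrophage differentiation, read 1170, 1260 and 2350 in media, 2670, 1380 and 4200 in wild type with DNA and 2110, 2190 and 1830 in the knockout. The groups overlapped in all 3 comparisons, and the spread within wild-type groups was wide (SD 658 in media and 1410 with DNA). The wild-type difference was 0.71 ± 0.38 (95% interval -0.13 to 1.55, adjusted p = 0.18), or 1.18, 0.12 and 0.83 within numbers, and it was called without wild-type DNA array 2 (1.13, adjusted p = 0.025). Its other probe set differed by 0.32. For knockout against wild type it was -0.29 ± 0.38 (adjusted p = 0.60), and knockout with DNA against media 0.42 ± 0.38 (adjusted p = 0.92).

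Klf2, which keeps endothelial and myeloid cells quiescent, read 1100, 1060 and 1190 in media, 1510, 860 and 1460 in wild type with DNA and 1020, 853 and 842 in the knockout. Wild-type DNA array 2 was below all media arrays, whereas arrays 1 and 3 were above them. The difference with DNA in wild type was 0.15 ± 0.22 (95% interval -0.34 to 0.63, adjusted p = 0.65). Under DNA the knockout differed from wild type by -0.45 ± 0.22 (adjusted p = 0.14), and by -0.71 without wild-type DNA array 2 (adjusted p = 0.012). All knockout arrays read below all media arrays, by -0.30 ± 0.22 (adjusted p = 0.84). Among 4 measured genes that KLF2 is known to activate, none was called with DNA in wild type, where 33.6% of all genes were. Itgb7, an integrin chain, was the 1 called in the knockout under DNA, where 31.5% of all genes were. It was higher by 0.93 ± 0.28 (adjusted p = 0.032). That call ended without number 1, 2 or 3, wild-type DNA array 1 or 3, or knockout array 2 or 3 (0.058 to 0.17), and with quantile normalization (0.086) and median centring (0.072).

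**Figure D2:**
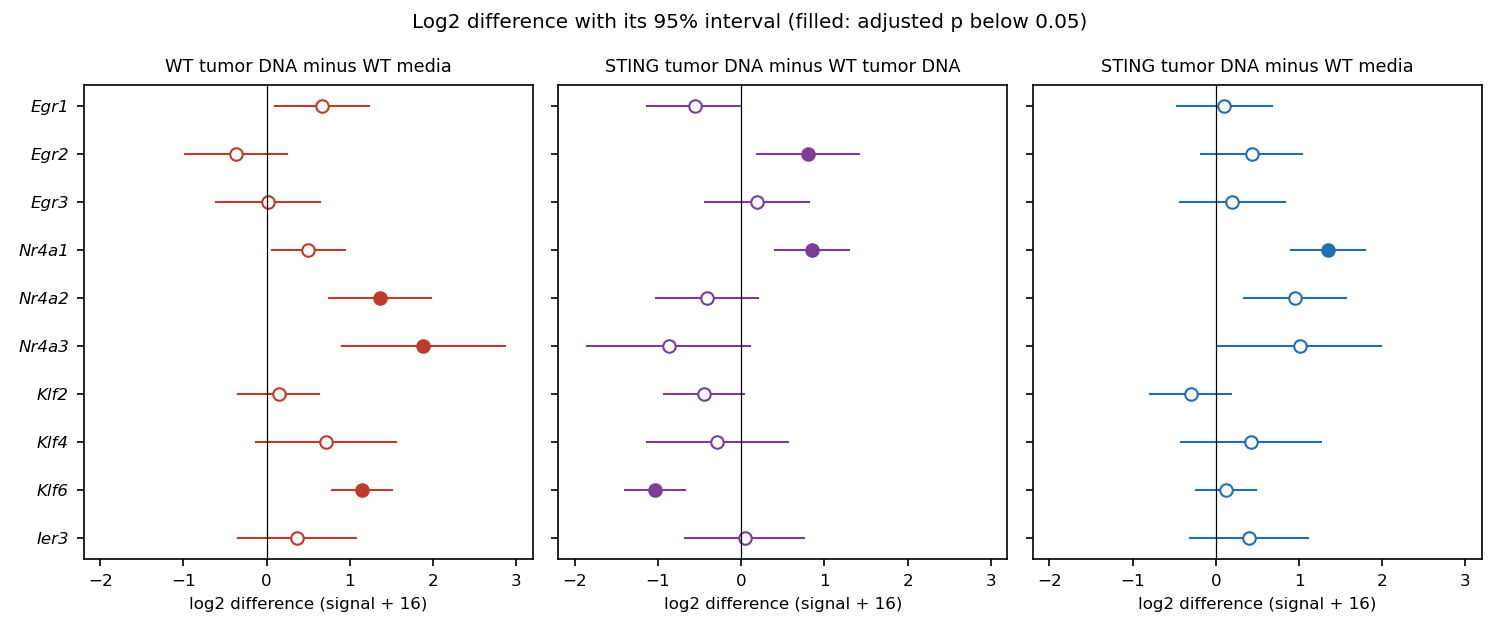
Log2 difference, in signal + 16, of each member with its 95% interval in the 3 comparisons, filled where the adjusted p was below 0.05. Nr4a2, Nr4a3 and Klf6 are filled at 1.36, 1.88 and 1.15 in the left panel, and in the middle panel Egr2 and Nr4a1 lie to the right of 0 and Klf6 to the left.

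Of the 3 EGR genes, Egr2 was called higher in the knockout under DNA, and neither Egr1 nor Egr3 was called in any comparison in the unpaired fit of all 9 arrays as scaled on deposit. Egr1, the best known of them and a marker of ERK activity, read 2160, 3200 and 3530 in media, 3200, 4830 and 6320 in wild type with DNA and 2900, 3240 and 3210 in the knockout. Within each number the wild-type DNA array was the highest of the 3, although the groups overlapped. The difference in wild type was 0.67 ± 0.25 (95% interval 0.10 to 1.23, adjusted p = 0.068), or 0.57, 0.59 and 0.84 within numbers, and it passed the test with the replicate block (0.67, adjusted p = 0.0071) and with median centring (0.97, adjusted p = 0.017). Knockout against wild type gave -0.56 ± 0.25 (adjusted p = 0.12), which also passed with the block (-0.56, adjusted p = 0.016) and with median centring (-0.82, adjusted p = 0.034). Leaving out the arrays numbered 1 gave 0.72 (adjusted p = 0.022) and -0.77 (adjusted p = 0.015), and leaving out wild-type DNA array 1 gave 0.93 (adjusted p = 0.018) and -0.82 (adjusted p = 0.027). Knockout with DNA and media differed by 0.10 ± 0.25 (adjusted p = 0.98).

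Egr2, a factor of macrophage and dendritic cell maturation, read 3120, 5390 and 4600 in media, 2240, 4870 and 3260 in wild type with DNA and 5810, 5450 and 5960 in the knockout. The 3 knockout arrays were the highest of the 9 and close together, and in wild type each DNA array was below the media array of its number. Under DNA the knockout was 1.74-fold higher than wild type (log2 difference 0.80 ± 0.27, n = 3 per group, adjusted p = 0.049), by 1.37, 0.16 and 0.87 within numbers. This call lay at the threshold. It was lost with an offset of 1 (adjusted p = 0.051), without the filter (0.065), without the variance trend (0.073), with the probe sets averaged (0.062), in the fit of all probe sets (0.053) and with median centring (a difference of 0.54, adjusted p = 0.16). It was also lost without the arrays numbered 1 or 3, without wild-type DNA array 1 or 3, without any of the knockout arrays and without media array 3 (0.52 to 0.84, adjusted p 0.066 to 0.26). The other Egr2 probe set read 2150, 5820 and 4600 in media, 1360, 3680 and 2980 in wild type with DNA and 4720, 4830 and 6240 in the knockout. Its difference under DNA was 1.08 ± 0.40 (adjusted p = 0.076). With DNA in wild type Egr2 differed by -0.37 ± 0.27 (95% interval -0.98 to 0.24, adjusted p = 0.33), and in the knockout against media by 0.43 ± 0.27 with no overlap (adjusted p = 0.81).

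Egr2 has 5 promoter windows in RefSeq, of which 4 held a CArG box, the element bound by SRF, and 3 held 2 matches to TGACG. Those 3 windows overlap and hold the same CArG box and the same 2 TGACG, seen from different starts. The remaining CArG box is a separate site, so the counts are of windows and not of sites. A CArG box occurs in 1.47% of all windows and was in no other member with an entry. The stretch in which both lie close together, from -72 to -48 at chr10:67537797-67537821 on the plus strand, is printed to show their spacing, with the CArG box and then the TGACG of the other strand in capitals.
Egr2: CCATATATGGgcagcgaCGTCAcgg

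Egr3, which acts with Egr2 in lymphocyte tolerance, read 1480, 2620 and 3080 in media, 2380, 1940 and 2660 in wild type with DNA and 1960, 3010 and 3080 in the knockout. All groups overlapped. The difference with DNA in wild type was 0.02 ± 0.28 (95% interval -0.61 to 0.64, adjusted p = 0.97) and turned sign between numbers (0.68, -0.43 and -0.21). Knockout against wild type differed by 0.19 ± 0.28 (adjusted p = 0.66), and by -0.07 with median centring. A second Egr3 probe set lay below the filter, at 6.63 to 79.1 over the 9 arrays.

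Ier3, also called IEX-1, read 3290, 4570 and 6840 in media, 6890, 4300 and 7350 in wild type with DNA and 4210, 7520 and 7460 in the knockout. Every group overlapped the others. Its differences were 0.36 ± 0.32 with DNA in wild type (95% interval -0.35 to 1.07, adjusted p = 0.42), 0.04 ± 0.32 for knockout against wild type (-0.67 to 0.75, adjusted p = 0.94) and 0.40 ± 0.32 for knockout with DNA against media (adjusted p = 0.88). With median centring the second was -0.22. Over the 9 arrays the log2 signal of Ier3 had a correlation of 0.88 with that of Egr3.

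Over the 10 members, 3 were called higher and 0 lower with DNA in wild type, where 9.94% of all genes were called higher and 23.6% lower. The median difference of the members was 0.58, against -0.20 for all genes. With the replicate block 5 members were called, as were 44.8% of all genes, and with median centring 5, with 27.7% of all genes. Groups did not overlap for 4 members, all higher (Nr4a1, Nr4a2, Nr4a3 and Klf6), against 15.0% of all genes higher and 31.4% lower. Between knockout and wild type under DNA, 2 members were called higher and 1 lower, with 21.8% and 9.73% of all genes called in those directions, and the medians were -0.35 and 0.20. The same 3 (Nr4a1 and Egr2 higher, Klf6 lower) were those without overlap, with 31.3% and 14.7% of all genes. Knockout with DNA against media, 1 member was higher and 0 lower (0.167% and 0.262% of all genes), and the medians were 0.41 and -0.01. In that comparison 4 members were higher without overlap (Egr2, Nr4a1, Nr4a2 and Nr4a3) and 1 lower (Klf2), with 5.93% and 7.88% of all genes. The comparisons share arrays, so the counts are not independent of each other.

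**Figure D3:**
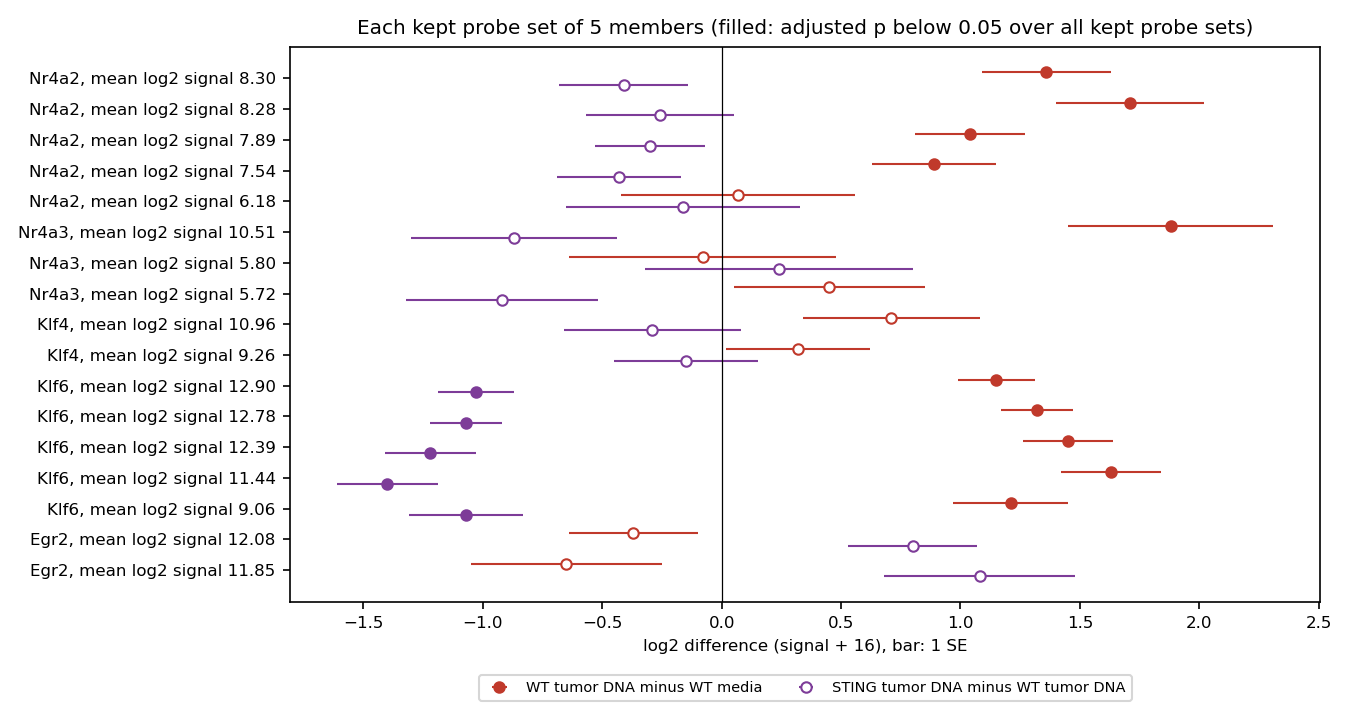
Log2 difference (signal + 16, bars 1 SE) of each kept probe set of the 5 members with more than 1, for DNA against media in wild type (red) and knockout against wild type under DNA (purple), filled where the adjusted p over all kept probe sets was below 0.05. The 5 Klf6 probe sets are filled on both sides, the 4 brighter Nr4a2 probe sets are filled for DNA against media alone, and both Egr2 probe sets are open.

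Of the 22 member probe sets above the filter, 10 were called higher and 0 lower with DNA in wild type. The 10 were the 5 of Klf6, 4 of Nr4a2 and 1 of Nr4a3. Of all 27022 probe sets 2309 were called higher and 4975 lower, 27.0% in either direction. Under DNA in the knockout 5 member probe sets were lower, all of Klf6, and 1 was higher, that of Nr4a1. Of all probe sets 2255 were lower and 4541 higher there, 25.1% in either direction. Against media the Nr4a1 probe set was the 1 called (0.381% of all in either direction). Probe sets of a gene read the same RNA and are not replicates.

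Genes that act with the members were read from 8 lists with 91 genes, of which 79 were measured. With DNA in wild type 17 rose and 19 fell, where 9.94% and 23.6% of all genes did, and their median was -0.12. In the knockout under DNA 22 were higher and 13 lower, where 21.8% and 9.73% of all genes were, with a median of 0.33. Without the arrays numbered 3 these calls numbered 11 in place of 36 and 9 in place of 35. Calls over all genes also dropped there, to 1492 in place of 4224 and to 1379 in place of 3970. In the knockout the list calls numbered 19 without number 2 and 23 without knockout array 2. Over all genes they numbered 2256 and 2891 in these fits, in place of 3970. In the comparison of knockout with DNA and media 1 was higher and 0 lower, where 0.167% and 0.262% of all genes were.

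Of the 7 genes called with DNA in wild type in the lists of KLF and SP factors, NR4A partners and EGR corepressors, 6 fell, where 70.4% of all genes called fell, or 41.6% with median centring. Of 14 other KLF and SP factors, 4 fell and 0 rose with DNA in wild type, where 23.6% and 9.94% of all genes did. Among them were Klf7 (-1.16 ± 0.21), Klf13 (-0.80 ± 0.16, not called with median centring, adjusted p = 0.059) and Klf10 (-0.96 ± 0.31, adjusted p = 0.039). Klf10 was called neither with quantile normalization nor with median centring (-0.66, adjusted p = 0.17). In the knockout under DNA 4 of the 14 were higher and 0 lower, where 21.8% and 9.73% of all genes were. Klf16 differed there by 1.24 ± 0.19. Rxra, a retinoid X receptor and dimer partner of Nr4a1 and Nr4a2, read 557, 286 and 322 in media, 167, 134 and 161 in wild type with DNA and 499, 336 and 394 in the knockout. It fell by 1.20 on the log2 scale with DNA (SE 0.26, adjusted p = 0.0073) and was higher in the knockout by 1.31 ± 0.26 (adjusted p = 0.0046). Rxrb, its paralog, differed in the same directions, by -0.98 ± 0.23 and 0.82 ± 0.23, though neither was called with median centring (adjusted p = 0.057 and 0.11). Nab1, a corepressor that EGR proteins recruit, rose by 0.52 ± 0.14 (adjusted p = 0.016) and was lower in the knockout by -0.42 ± 0.14 (adjusted p = 0.039). Without the arrays numbered 3 the calls of Klf7, Klf10, Rxra, Rxrb and Nab1 given here all ended (adjusted p 0.055 to 0.20). Those of Rxrb also ended without number 2 (0.063 and 0.075) and, in the knockout, without knockout array 1 or 3 or wild-type DNA array 3 (0.068 to 0.074). That of Klf10 ended without number 2, array 1 or 3 of media, array 2 or 3 of wild type with DNA, or knockout array 3 (0.057 to 0.13). For Nab1 the rise ended without number 1, media array 1, or array 1 or 3 of wild type with DNA (0.050 to 0.10) and the knockout call without number 1 or 2, any knockout array, media array 2, or array 1 or 3 of wild type with DNA (0.055 to 0.14). Both Nab1 calls also ended with quantile normalization (0.073 and 0.18) and with probe sets averaged (0.14 and 0.23).

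Among the upstream factors, 6 of 13 SRF, ternary complex, CREB and MEF2 genes fell with DNA in wild type and 1 rose. Of all genes 23.6% fell and 9.94% rose. The falls made up 70.4% of all genes called, or 41.6% with median centring. Srf itself read 397, 551 and 623 in media, 135, 299 and 253 in wild type with DNA and 486, 571 and 674 in the knockout, with differences of -1.18 ± 0.29 (adjusted p = 0.012) and 1.33 ± 0.29 (adjusted p = 0.0069). Mef2d, which drives Nr4a1 in lymphocytes, fell by 1.38 on the log2 scale (SE 0.21, adjusted p = 0.0014) and was higher in the knockout by 1.38 ± 0.21. Crem, the cAMP-responsive modulator, rose by 1.08 ± 0.28 (adjusted p = 0.015). In the knockout under DNA 6 of the 13 were higher and 0 lower, where 21.8% and 9.73% of all genes were. Of 11 ERK, ERK5 and p38 kinases, 2 rose and 5 fell with DNA in wild type, where 9.94% and 23.6% of all genes did. Map2k1, the kinase directly above ERK, rose by 1.25 ± 0.16 and was lower in the knockout by -1.17 ± 0.16 (adjusted p = 0.00071 and 0.00077), while Mapk7, or ERK5, differed by -0.98 ± 0.18 and 0.92 ± 0.18. Without the arrays numbered 3 the calls of Srf, Crem and Mapk7 ended (adjusted p 0.057 to 0.12), and that of Crem also without number 2 (0.081).

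Of 30 other immediate early and fast response genes, 12 were called higher and 2 lower with DNA in wild type, with a median of 0.36. Of all genes 9.94% were called higher and 23.6% lower. In the knockout under DNA 10 were lower and 5 higher, where 9.73% and 21.8% of all genes were. Ptgs2, the inducible cyclooxygenase, read 357, 197 and 144 in media, 12500, 910 and 4560 in wild type with DNA and 430, 670 and 733 in the knockout, a rise of 4.01 ± 0.76 (adjusted p = 0.0038) that was lost without the arrays numbered 3 (3.59, adjusted p = 0.080). Cd69 rose by 3.61 ± 0.33 and Csrnp1 by 2.87 ± 0.31. Fos, the AP-1 subunit, was highest in the knockout arrays, as Nr4a1 was, with 2590, 2820 and 2230 in media, 2020, 2670 and 2150 in wild type with DNA and 6090, 4460 and 5980 in the knockout. Its difference against media was 1.10 ± 0.17 (adjusted p = 0.028), lost without the variance trend (0.065) and without number 1, 2 or 3, any media array, wild-type DNA array 3 or knockout array 3 (0.061 to 0.91), and in wild type it was -0.16 (adjusted p = 0.51). Ier5 rose with DNA by 0.83 ± 0.19 (adjusted p = 0.0086), and Ier2 was higher in the knockout by 0.59 ± 0.18 (adjusted p = 0.030). The Ier5 call ended without the arrays numbered 3 (0.10) and with probe sets averaged (0.12). The Ier2 call ended without number 2 or 3, wild-type DNA array 1 or 2, or knockout array 2 or 3 (0.077 to 0.23), and with quantile normalization (0.051) and median centring (0.17).

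**Figure D4:**
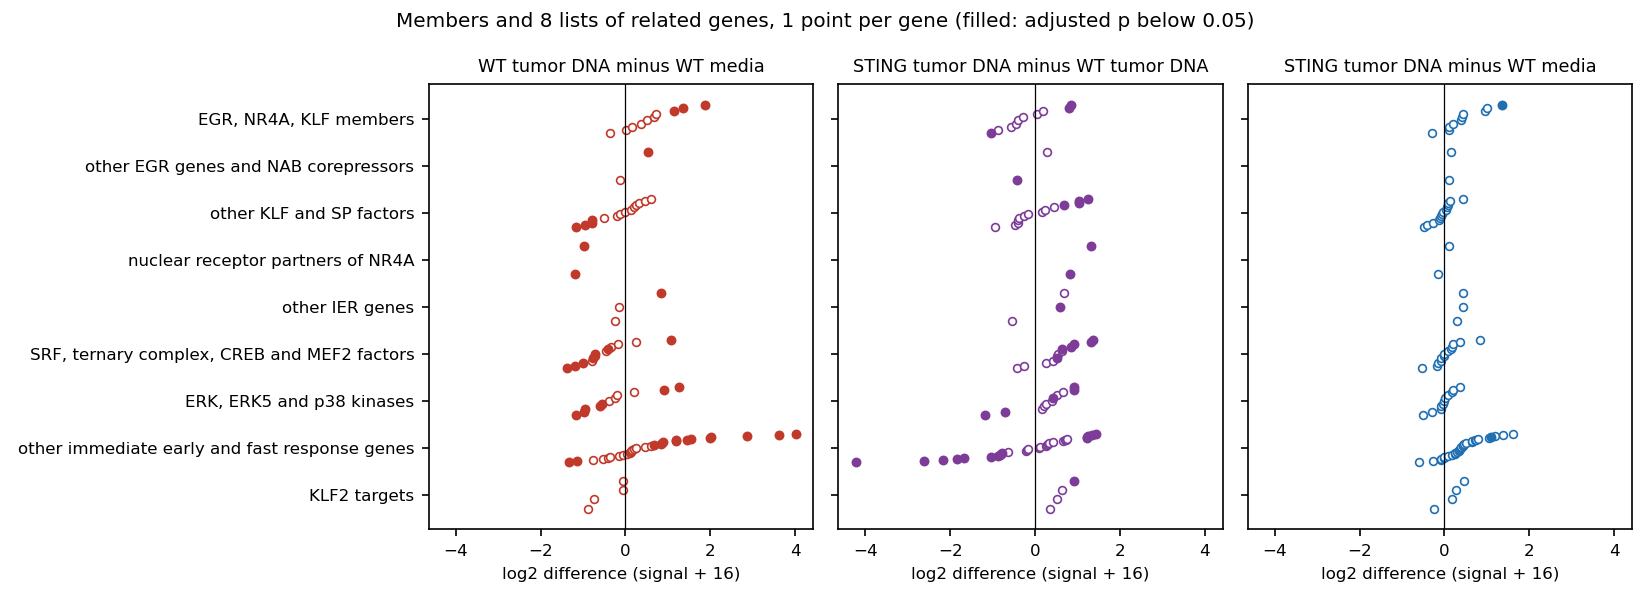
Log2 difference (signal + 16) of the 10 members and of each measured gene of the 8 related lists in the 3 comparisons, 1 point per gene and filled where the adjusted p was below 0.05. Filled points lie on both sides of 0 in the first and second panels (17 higher and 19 lower, then 22 and 13, over the related lists), and in the third 1 member and 1 related gene are filled.

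The genes most like each called member were found by Pearson correlation of log2 signals over the 9 arrays, which share arrays and the group differences. For Klf6 they were Gm41810 (0.993) and Max (0.992), the latter the dimer partner of MYC. Nr4a2 was nearest to Cd14 (0.941), the coreceptor for endotoxin, and to Net1 (0.940), and Nr4a3 to Itgb8 (0.957) and Magel2 (0.956). Egr2 was nearest to Sh3bgrl3 (0.959) and to Psmc1 (0.957), a proteasome subunit. Nr4a1 was nearest to Alas1 (0.964), the first enzyme of heme synthesis, and to Dubr (0.917). Among the members themselves Egr2 ran opposite to Klf2 (-0.82) and Klf6 (-0.73), and Nr4a1 and Klf6 had a correlation of -0.11.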

How the data were processed

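The deposited values were linear signal intensities made with MAS5, per the submitters' processing notes. Detection calls were not used, and the software's version and the array's build are not stated in the sources at hand. Biotin-labelled cRNA came from 6 ug of total RNA, per the labels' protocols. Of 45101 probe sets 64 controls were removed, and 34945 carried 1 gene symbol, 932 several and 9160 none in the platform annotation. Signals were analysed as log2(signal + 16), which understates differences of weak genes. Probe sets with a mean over all arrays above the 40th percentile (5.67) were kept, 27022 in all, and the brightest stood for each gene. Of the member probe sets 22 were kept, and 1 each of Egr3 and Nr4a2 were not. A linear model over the 9 arrays (limma 3.58.1, R 4.3.3, lmFit and eBayes with a trend) left out the replicate number. P-values are 2-sided and Benjamini-Hochberg adjusted over all 12586 genes of a comparison, and a gene was called below 0.05. The code was tested on simulated data.

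Replicate numbers come from the titles, where a title without a numeral was taken as number 1. Residuals of same-numbered arrays correlated at 0.17 to 0.49 (9 pairs), against -0.42 to 0.14 for 18 other pairs, so the numbers met the rule for pairing. The p-values given are nonetheless unpaired unless the block is named. The alternatives were the number as a block, offsets of 64 and 1, quantile normalization, median centring, no filter, no variance trend, the mean of probe sets, a fit of all probe sets and leaving out arrays. Members, lists and tests were chosen with earlier results of these data known. Named genes were all members, up to 3 called genes with the largest difference per list and comparison, and the 2 genes nearest each called member. The number of arrays limits the precision.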

Additional observations from a re-analysis of the deposited data

How the results depend on the processing

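Of the single-member values under all settings, 574 kept their direction and their side of the threshold, 25 lost the call, 14 gained it and 17 changed sign. With DNA in wild type 3 members were called, 5 with median centring and 5 with the replicate block, which called Egr1 and Nr4a1 as well (adjusted p = 0.0071 and 0.041). Of all genes 33.6% were called, 27.7% with median centring and 44.8% with the block. With quantile normalization 4 were called, with probe sets averaged 2, and with arrays left out 2 to 4. Of all genes 28.4%, 31.6% and 11.9% to 33.4% were called in these fits. For knockout against wild type 3 members were called, and 4 with the block (43.0% of all genes, against 31.5% without it). Only 2 were called with an offset of 1, no filter, no variance trend, probe sets averaged or the fit of all probe sets. In the same order 31.1%, 20.2%, 29.9% and 29.4% of all genes and 25.1% of all probe sets were called. With median centring 3 were called, Egr1 in place of Egr2, and with arrays left out 1 to 4. Of all 12586 genes 25.9% were called with median centring, and 1379 to 3949 genes with arrays left out, against 3970 in the main fit. Knockout with DNA against media 1 was called, or 0 to 1 with arrays left out, where 0.429% and 0.0318% to 1.04% of all genes were. The replicate block changed no call of a member other than those of Egr1 and Nr4a1.

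Over all genes the fit of all probe sets called 7284 probe sets for DNA in wild type, 6796 for knockout against wild type and 103 for knockout with DNA against media, more features than genes having been tested. The block called 5634, 5407 and 176 genes, against 4224, 3970 and 54 without it. With arrays left out the calls were 1492 to 4207, 1379 to 3949 and 4 to 131. Fewer samples entered those fits.

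The differences that changed sign were small. With median centring Egr3 and Ier3 in the knockout against wild type became -0.07 and -0.22. With arrays left out Egr3 ranged from -0.32 to 0.24 and Klf2 from -0.01 to 0.40 for DNA in wild type. Knockout against wild type the ranges were -0.03 to 0.42 for Egr3, -0.34 to 0.41 for Ier3 and -0.76 to 0.16 for Klf4. Knockout with DNA against media they were -0.11 to 0.24 for Egr1 and -0.11 to 0.41 for Egr3. The cause was not tested. Of the named related genes and the 2 check genes, 319 of 342 values under other settings and 379 of 456 with arrays left out kept their direction and their side of the threshold, and 23 and 77 lost the call. Weak signals were not separated from background, which limits the weak probe sets of Nr4a2, Nr4a3 and Egr3.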
